A study of Arabidopsis thaliana with 27 samples.

Results

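Roots of Epi 8 plants were compared with roots of Col-0 wild type (WT) plants in 6 RNA-seq libraries, 1 from each of 3 individual 10-day-old plants per line, out of 27 libraries in the whole dataset. The members were chosen by their labels as Epi 8 root and WT root, and no measured value entered that choice. Epi 8 is an F3 family. It descends from a single cross of Col-0 WT as the female parent with the msh1 T-DNA mutant SAIL_877_F01, in which the nuclear gene for the organelle-targeted protein MSH1 is disrupted. F2 plants were genotyped for the insertion, and plants with wild type MSH1 were selfed, so the Epi 8 plants carry the wild type gene. Both lines share the Col-0 background and grew on 0.5 MS medium with no further treatment. The 3 Epi 8 plants thus represent 1 family from 1 cross. Roots of 3 Epi 24 plants, another F3 family of the same cross, entered the fit for the spread between plants and are not described for themselves. The design compares WT with a family that descends from the msh1 mutant and is genetically wild type at the locus. Whole roots were pooled per plant, so fewer cells of a type and less RNA per cell cannot be told apart.

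The root takes up water and mineral ions through its outer cells, and the endodermis controls what enters the vascular tissue. Endodermal cells build the Casparian strip, a lignin band that seals the space between cells, and later deposit suberin lamellae on their surface. Aquaporins carry water across membranes, and dedicated regulons answer low iron, phosphate, nitrate or sulfate. The circadian clock runs in root cells as well as in leaves. Its morning factors CCA1 and LHY, both MYB proteins, repress the evening genes by binding the evening element, and evening proteins repress the morning genes in turn.

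Total counts per library ranged from 18596963 to 20041205, and 3 counts, used as the detection floor, corresponded to between 0.15 and 0.161 CPM, the count scaled to the size of its library. This floor concerns counting only and does not cover the spread between plants. Of 33977 genes in the files, 20787 passed the filter on low counts and were tested, and the 285 organelle genes had no counts. On the first principal component of the root libraries, Epi 8 plant 2 stood at 42.8 and Epi 24 plant 1 at -46.4, while the other root libraries lay between -7.6 and 7.4. For several lists, counts are therefore also given without Epi 8 plant 2 below. Summed photosynthesis markers reached 1000, 1376 and 665 CPM in Epi 8 plants 1, 2 and 3, against 817, 1153 and 1165 CPM in WT. The libraries thus hold some RNA of photosynthesis genes. The source of this RNA and its part in the results were not tested. LHCB2.1, a light-harvesting protein, was the marker of the 16 tested that passed the unadjusted limit defined below, lower in Epi 8. The 16 markers of root cell types summed to between 313 and 364 CPM in Epi 8 and between 325 and 416 CPM in WT, and all 16 were tested. The 5 seed storage markers summed to at most 0.161 CPM. MSH1 had 9.77, 9.12 and 9.98 CPM in Epi 8 roots, against 9.24, 6.35 and 11.1 CPM in WT roots, and the groups overlapped.

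No gene passed a false discovery rate (FDR) of 0.05 and a fold limit of 0.5 on the log2 scale (log2FC, Epi 8 over WT) in edgeR's quasi-likelihood test, where the smallest FDR was 0.127. The same limits gave 29 genes in edgeR's likelihood ratio test (0.14% of genes tested, 0.0577% higher and 0.0818% lower in Epi 8), 30 in DESeq2 (0.144%, 0.0529% higher and 0.0914% lower) and 81 in edgeR's exact test on the 6 libraries (0.398%, 0.0933% higher and 0.304% lower). All 3 of these tools called 23 genes in common. In the quasi-likelihood test, 1165 genes (5.6%) had an unadjusted p under 0.05 at any fold. An unadjusted p under 0.05 together with an absolute log2FC of at least 0.5 is called the unadjusted limit here. It is a limit for description. It was passed by 628 genes (3.02%), of which 232 (1.12%) were higher and 396 (1.91%) lower in Epi 8. The 3 Epi 8 plants did not overlap the 3 WT plants for 2761 genes (13.3%), with 6.77% of genes higher and 6.51% lower. The log2FC was above 0 for 49.9% of genes, and its median was -0.0005. In the quasi-likelihood test, the genes described below as past the limit passed at an unadjusted p only, and p-values measure the spread between these plants. Of the 78 genes named by rule, 34 stayed past the unadjusted limit whichever of the 6 plants was left out.

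**Figure D1:**
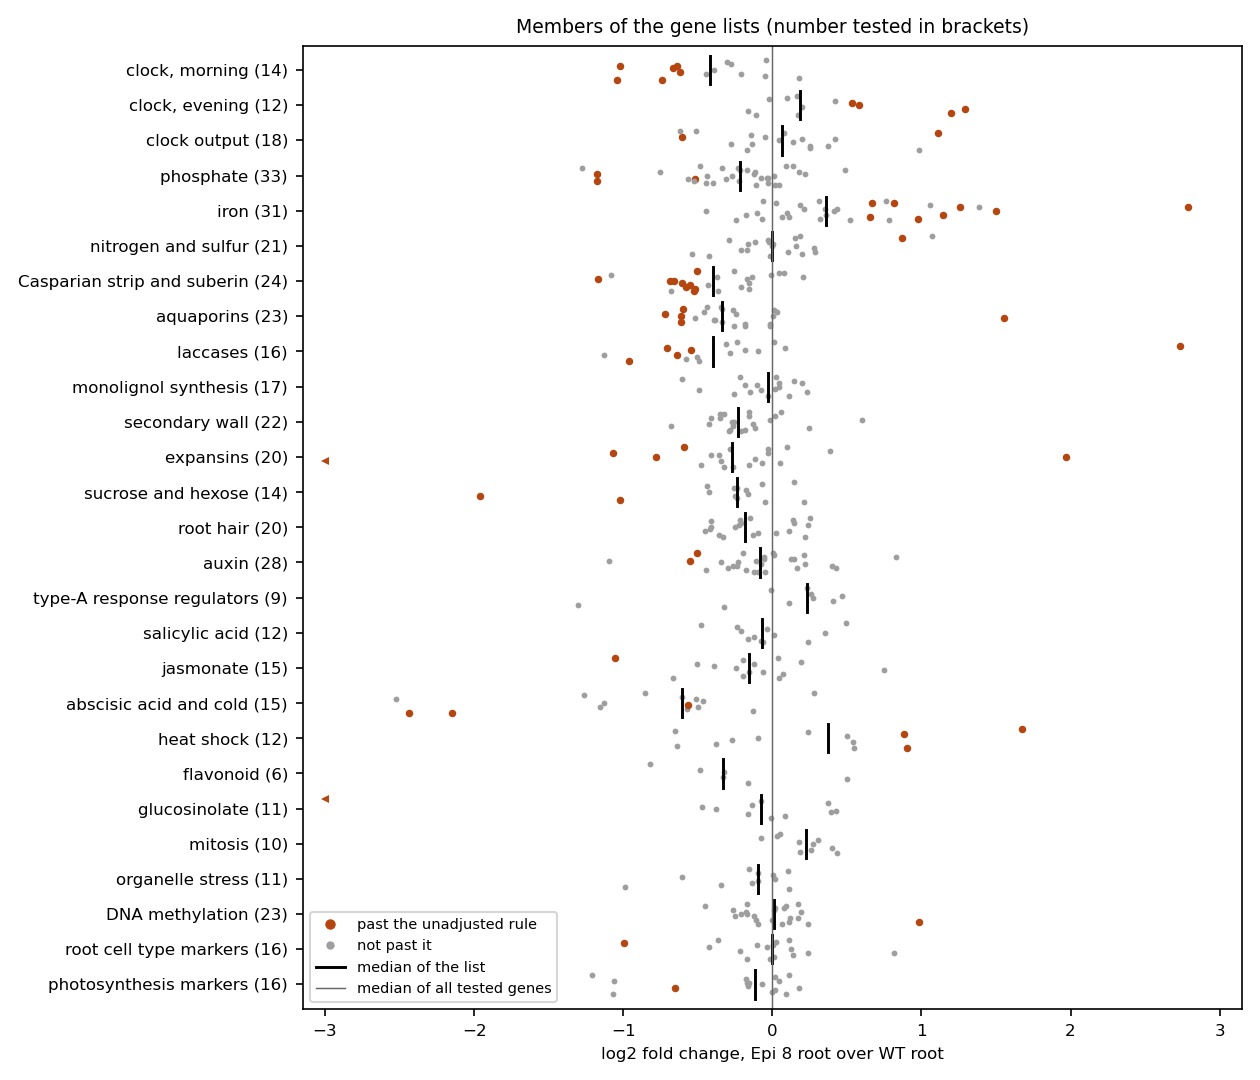
Each point is a tested member of a gene list, placed by its log2 fold change between Epi 8 root and WT root (x axis), with coloured points past the unadjusted limit, black bars at list medians and triangles for the 2 members beyond -3. The morning clock, Casparian strip and suberin, laccase and aquaporin lists have medians between -0.34 and -0.42, and the iron list has a median of 0.36.

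Most morning genes of the clock had a negative log2FC in Epi 8 roots. Of 14 members tested, 13 did, and 6 (42.9%, against 1.91% of all genes) passed the unadjusted limit, each lower. Their median log2FC was -0.42. CCA1, a MYB repressor at the core of the clock (AT2G46830, chromosome 2, 19245591 to 19248915), had 5.79, 6.12 and 8.18 CPM in Epi 8 roots, against 10.9, 15.1 and 15.4 CPM in WT roots. All 3 Epi 8 plants lay below all WT plants, at a log2FC of -1.04 (SE 0.24, FDR = 0.543). LHY, its close relative, had 7.10, 7.39 and 9.28 CPM in Epi 8, against 10.6, 12.9 and 13.5 CPM in WT, again without overlap (log2FC -0.64, FDR = 0.853). Both genes carry the G-box CACGTG, a palindromic element bound by bHLH and bZIP factors, in the 300 bases before their start. It was found in 7 of 14 morning promoters, against 7.86% of 20075 promoters of tested genes. LNK3, described below, holds the element 2 times. It was also found before PRR7, PRR9, RVE1 and RVE2, which did not pass the limit. LNK1, LNK2 and RVE8 passed the limit and had no match in this window. The stretches are shown for the morning genes past the limit that hold the element, in RefSeq sequence of TAIR10.1, with the G-box in capitals. They lie at chr2:19245378-19245423 on the plus strand for CCA1, chr1:37926-37971 on the minus strand for LHY and chr3:3923324-3923399 on the plus strand for LNK3.
CCA1: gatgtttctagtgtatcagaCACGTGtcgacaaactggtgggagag
LHY: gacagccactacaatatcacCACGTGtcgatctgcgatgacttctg
LNK3: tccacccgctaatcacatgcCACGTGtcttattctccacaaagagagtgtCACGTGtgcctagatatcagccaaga

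The LNK proteins are coactivators that work with the MYB factor RVE8 on evening genes. LNK2 (AT3G54500, chromosome 3, 20175370 to 20179070) had 47.5, 45.8 and 42.1 CPM in Epi 8 roots, against 68.5, 85.2 and 72.4 CPM in WT roots. The Epi 8 plants lay close together below every WT plant (log2FC -0.74, SE 0.14, FDR = 0.412). RVE8 itself had 5.79, 6.22 and 6.74 CPM in Epi 8, against 8.43, 10.3 and 10.96 CPM in WT (log2FC -0.66, FDR = 0.885). It no longer passed the limit when any plant but WT plant 1 was left out. LNK1 had 16.7, 17.2 and 17.7 CPM in Epi 8, against 17.61, 31.5 and 30.3 CPM in WT, where plant 1 overlapped the Epi 8 plants. LNK3 had 3.33, 1.99 and 6.29 CPM in Epi 8, against 5.99, 12.2 and 5.26 CPM in WT, and the groups overlapped. LNK3 no longer passed without Epi 8 plant 1, Epi 8 plant 2 or WT plant 2. LNK1 dropped out without WT plant 2, and LHY without Epi 8 plant 1. PRR9 and PRR7, the morning pseudo-response regulators, had log2FC of -0.21 and -0.05 and did not pass. Without Epi 8 plant 1, 3 of the 14 morning genes passed the limit, and without Epi 8 plant 2, 4 passed. Without WT plant 2, which was highest for LNK2, LNK3 and several others, the median of the list was -0.07, and without WT plant 1 it was -0.70.

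Evening genes tended the other way. Of 12 members tested, 9 had a positive log2FC and 4 (33.3%, against 1.12% of all genes) passed the unadjusted limit, each higher in Epi 8, with a list median of 0.19. PRR3, a pseudo-response regulator that stabilises TOC1 protein (AT5G60100, chromosome 5, 24197971 to 24201415), had 8.67, 7.65 and 6.49 CPM in Epi 8 roots, against 2.75, 2.92 and 3.598 CPM in WT roots. The lowest Epi 8 plant was above the highest WT plant, at a log2FC of 1.296 (SE 0.27, FDR = 0.412). FKF1, a blue light receptor and F-box protein, had 4.79, 6.32 and 2.99 CPM in Epi 8, against 2.16, 1.71 and 2.26 CPM in WT (log2FC 1.2, FDR = 0.871). ELF4, of the evening complex, had 22.4, 23.2 and 24.8 CPM in Epi 8, against 20.3, 17.3 and 9.56 CPM in WT, without overlap but with WT plant 3 far below the other WT plants. ELF4 no longer passed the limit when any plant but WT plant 1 was left out. LUX, the DNA-binding subunit of that complex, had 19.6, 27.7 and 25.4 CPM in Epi 8, against 17.61, 21.2 and 11.5 CPM in WT, where plant 2 overlapped Epi 8. LUX no longer passed without Epi 8 plant 2, Epi 8 plant 3 or WT plant 3. FKF1 no longer passed without Epi 8 plant 2 or WT plant 2. TOC1, GI, ELF3 and ZTL had log2FC between -0.02 and 0.17 and did not pass. The evening count was 1 of 12 without Epi 8 plant 2 and 2 without WT plant 3.

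The evening element AAAATATCT was found on either strand in the 300 bases before the start of 5 of the 12 evening genes, 1 of the 14 morning genes and 2.88% of all promoters. LUX and FKF1 passed the limit and TOC1 and PRR5 did not, so these promoters are shown together, with the element in capitals (AGATATTTT is the same element on the opposite strand). PRR3 had no match in this window. The stretches lie at chr3:17182969-17183017 (plus strand, LUX), chr1:25508433-25508481 (plus, FKF1), chr5:24674792-24674840 (plus, TOC1) and chr5:8358705-8358846 (minus, PRR5), where 2 copies were found.
LUX: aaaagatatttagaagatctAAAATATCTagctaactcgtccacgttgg
FKF1: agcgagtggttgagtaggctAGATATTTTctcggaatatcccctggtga
TOC1: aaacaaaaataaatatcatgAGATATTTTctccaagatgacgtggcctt
PRR5: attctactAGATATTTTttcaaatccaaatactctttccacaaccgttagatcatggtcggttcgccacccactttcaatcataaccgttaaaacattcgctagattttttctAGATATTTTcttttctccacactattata
The fifth evening gene with a match was BOA, a LUX relative, at a log2FC of -0.16.

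**Figure D2:**
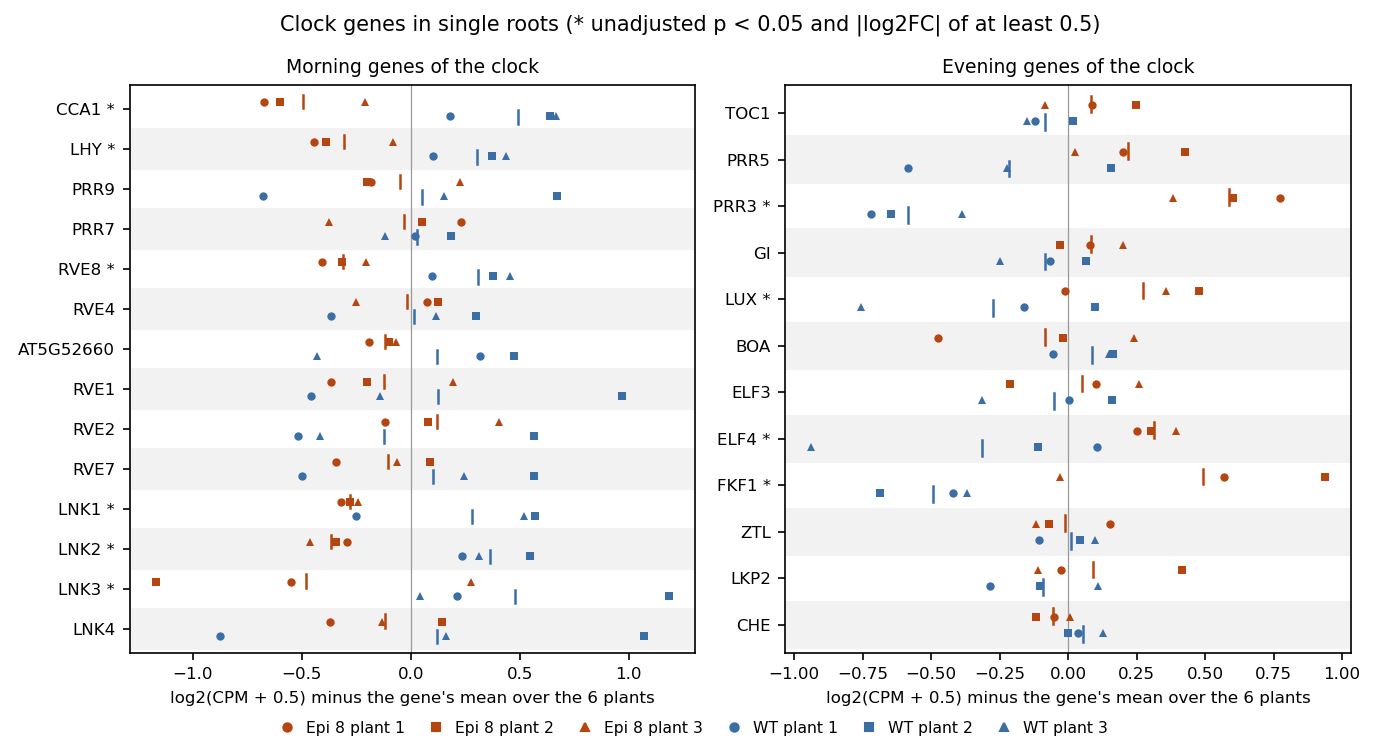
Clock genes in single roots, as log2(CPM + 0.5) minus the gene's mean over the 6 plants (x axis), with Epi 8 plants above WT plants in each row and vertical bars at group means. CCA1, LHY, RVE8 and LNK2 separate the lines with Epi 8 to the left, and PRR3, ELF4 and FKF1 separate them with Epi 8 to the right.

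Among 18 clock output genes tested, 2 (11.1%, against 3.02% of all genes) passed the limit, and 1 did without Epi 8 plant 1, Epi 8 plant 3 or WT plant 3. AT4G33980, an uncharacterized protein in the annotation, had 8.36, 12.0 and 7.09 CPM in Epi 8 roots, against 4.16, 3.83 and 4.73 CPM in WT roots (log2FC 1.11, FDR = 0.549). CDF2, a DOF repressor of flowering genes that FKF1 targets for degradation, had 7.61, 7.80 and 6.69 CPM in Epi 8, against 7.99, 11.9 and 13.8 CPM in WT (log2FC -0.61, FDR = 0.875). CDF2 no longer passed without Epi 8 plant 1, Epi 8 plant 3, WT plant 2 or WT plant 3. GRP7, a clock-controlled RNA-binding protein and the most abundant gene of these lists, had 1954, 2047 and 1949 CPM in Epi 8, against 1453, 1604 and 1384 CPM in WT. Its plants did not overlap, but the log2FC of 0.42 lay under the fold limit (FDR = 0.855). The hour at which roots were frozen is not given in the sources used here, so a difference in hour and a difference between the lines cannot be told apart for these genes.

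Clock genes were among those whose Epi 8 difference in root departed from that in floral stem, each measured against WT of its own organ. In a fit of all 27 libraries, the difference between the Epi 8 effect in root and in floral stem passed an FDR of 0.05 for 71 of 22442 genes (0.316%). Of the morning list, CCA1, LHY and LNK1 were among them, each lower in root and higher in floral stem. Of the evening list, TOC1, PRR3, LUX and ELF3 were among them, with a positive log2FC in root and a negative one in floral stem. The Epi 8 log2FC of PRR3 was 1.296 in root and -2.38 in floral stem, and that of LHY was -0.64 in root and 1.45 in floral stem. By the unadjusted limit, 7 of 14 morning genes were higher (50%, against 2.94% of all genes tested there) and 8 of 12 evening genes lower (66.7%, against 4.28%) in Epi 8 floral stem, where 7.23% of 19594 genes passed in all. The 71 calls were 37 without Epi 8 root plant 1, 32 without Epi 8 root plant 2, 33 without WT root plant 1 and 40 without WT root plant 3. In leaf, 13 of 14 morning genes had a positive log2FC and 2 passed, each higher (14.3%, against 3.37% of all genes), while 0 of the 12 evening genes passed. In leaf, 7.11% of 20052 genes passed, with 3.74% lower. The difference between root and leaf passed an FDR of 0.05 for 0 of 22442 genes in the quasi-likelihood test, where 8.05% had an unadjusted p under 0.05, and for 50 genes in edgeR's likelihood ratio test. The organs also differ in age and growth medium, which cannot be told apart from organ here. Leaf libraries held 48098795 to 90808615 counts, against 18524351 to 20041205 in root. Reads outside genes were 0.681 to 0.995% in leaf and 3.935 to 6.175% in root. The part of these differences in the results was not tested. The hour of harvest is not given for any organ in the sources used here and cannot be told apart from organ either.

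**Figure D3:**
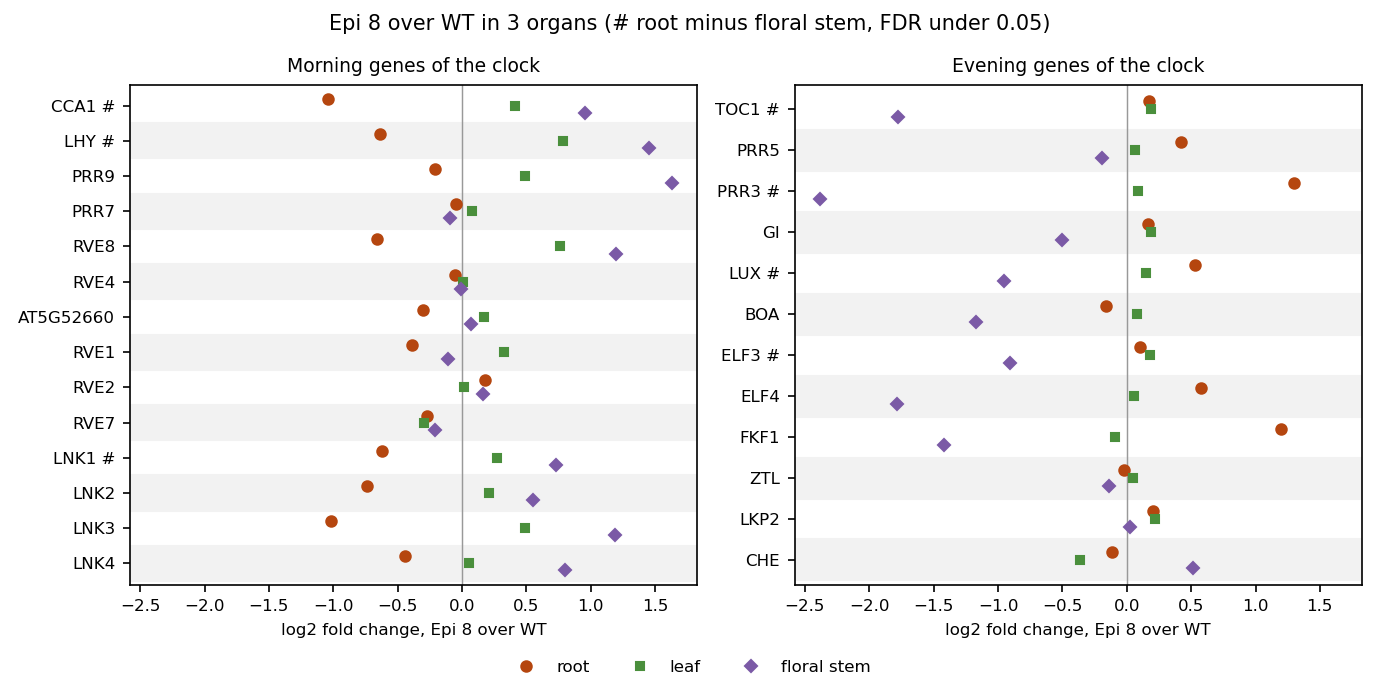
Log2 fold change of Epi 8 over WT (x axis) for clock genes in root, leaf and floral stem, each point the difference between 3 Epi 8 and 3 WT plants of that organ, with # where root and floral stem differ at an FDR under 0.05. CCA1, LHY and LNK1 lie left of 0 in root and right of 0 in floral stem, and TOC1, PRR3, LUX and ELF3 lie the other way round.

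Phosphate response genes were mostly below WT, but few passed. Of 33 members tested, 25 had a negative log2FC and 3 (9.09%, against 1.91% of all genes) passed the limit, each lower, with a list median of -0.22. AT4, a non-coding RNA induced by phosphate starvation that sequesters miR399 (AT5G03545, chromosome 5, 894582 to 895517), had 65.6, 54.1 and 74.4 CPM in Epi 8 roots, against 183, 113 and 141 CPM in WT roots. Every Epi 8 plant was below every WT plant (log2FC -1.17, FDR = 0.725). PAP17, a purple acid phosphatase (AT3G17790, chromosome 3, 6089381 to 6091231), had 10.3, 6.78 and 10.6 CPM in Epi 8, against 23.3, 19.8 and 19.6 CPM in WT, without overlap (log2FC -1.18, FDR = 0.412). SPX1, a phosphate sensor that restrains the regulator PHR1, had 17.9, 12.6 and 13.0 CPM in Epi 8, against 18.4, 22.1 and 21.9 CPM in WT (log2FC -0.52, FDR = 0.853). PHO2, the ubiquitin-conjugating enzyme that miR399 targets, had 224, 267 and 251 CPM in Epi 8, against 195, 176 and 158 CPM in WT. It thus lay above WT in every plant, with a log2FC of 0.49, under the fold limit (FDR = 0.725). The uptake transporters PHT1;1 and PHT1;4 had log2FC of -0.11 and -0.31 and overlapped between the lines. PHR1, the master regulator of the response, had a log2FC of 0.02. The PHR1 element P1BS, searched as GNATATNC, was found in 8 of 33 phosphate promoters, against 6.55% of all promoters. Of the members past the limit, AT4 had a match, and PAP17 and SPX1 had none in this window. The element is shown in capitals for AT4, at chr5:894536-894581 on the plus strand, directly before the start.
AT4: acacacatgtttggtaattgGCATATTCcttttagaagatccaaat
Without Epi 8 plant 1, 5 of the 33 phosphate genes passed the limit, without Epi 8 plant 2, 4 passed, and without WT plant 3, 2 passed. SPX1 no longer passed without Epi 8 plant 2, Epi 8 plant 3, WT plant 2 or WT plant 3. The list median was -0.14 without WT plant 1.

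Genes of the iron deficiency response leaned above WT. Of 31 members tested, 25 had a positive log2FC and 8 (25.8%, against 1.12% of all genes) passed the limit, each higher in Epi 8, with a list median of 0.36. FRO2, the ferric chelate reductase of the root surface, had 238, 86.7 and 88.9 CPM in Epi 8 roots, against 109, 39.6 and 38.0 CPM in WT roots. Plant 1 was the highest in both lines, so the ranges overlapped (log2FC 1.15, FDR = 0.821). The FRO2 log2FC was 0.48 without Epi 8 plant 1 and 1.83 without WT plant 1, and FRO2 did not pass without Epi 8 plant 1, WT plant 2 or WT plant 3. IRT1, the main ferrous iron transporter, followed the same order, with 349, 139 and 149 CPM in Epi 8, against 219, 82.6 and 68.0 CPM in WT, and did not pass (log2FC 0.78, FDR = 0.895). Its relative IRT2 had 18.1, 4.49 and 6.59 CPM in Epi 8, against 3.94, 3.53 and 4.73 CPM in WT, a difference that rested on Epi 8 plant 1. FIT1, the bHLH activator of both uptake genes, had a log2FC of 0.35 and did not pass.

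The 4 bHLH partners of FIT1 all passed, but none of them did without WT plant 1. All but BHLH39 overlapped between the lines, and these also did not pass without Epi 8 plant 1 or without WT plant 2. BHLH39 had 43.1, 43.7 and 34.6 CPM in Epi 8, against 18.201, 23.8 and 34.3 CPM in WT, with the lowest Epi 8 plant just above the highest WT plant (log2FC 0.67, FDR = 0.766). BHLH38 had 23.4, 16.4 and 19.7 CPM in Epi 8, against 9.61, 11.3 and 16.8 CPM in WT. BHLH100 had 6.50, 1.43 and 3.64 CPM in Epi 8, against 0.864, 0.907 and 2.31 CPM in WT. For these genes WT plant 3 was the highest WT plant, unlike FRO2 and IRT1, where it was the lowest. F6'H1, which makes the coumarins that roots secrete to mobilise iron (AT3G13610), had 166, 122 and 113 CPM in Epi 8, against 102, 66.3 and 59.8 CPM in WT. It did not overlap and stayed past the limit whichever plant was left out (log2FC 0.81, FDR = 0.548). AT3G12900 had 19.5, 2.96 and 2.45 CPM in Epi 8, against 2.32, 1.01 and 0.269 CPM in WT, and dropped out without Epi 8 plant 1. Without Epi 8 plant 1, 3 of the 31 iron genes passed the limit, with a list median of 0.21. Without WT plant 2, 5 passed, without Epi 8 plant 2, 10 passed, and the median was 0.56 without WT plant 1.

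**Figure D4:**
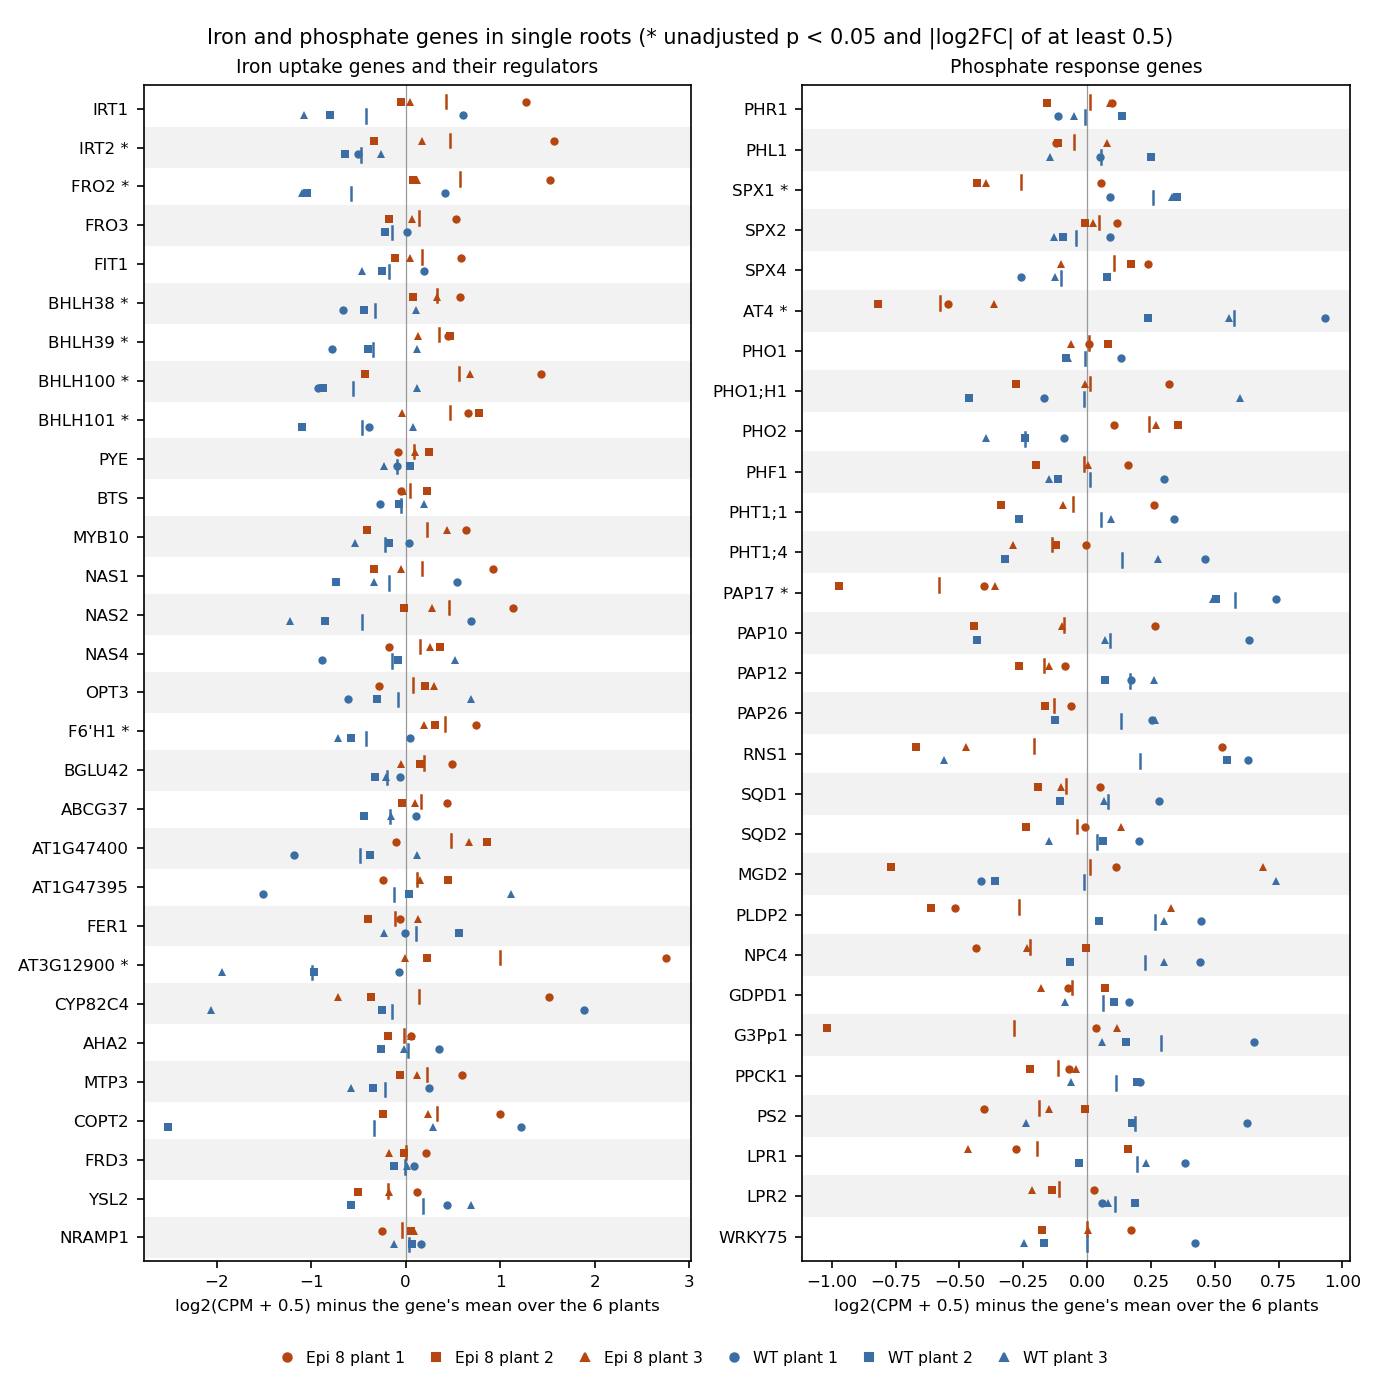
Iron and phosphate genes with a mean of at least 1 CPM in single roots, as log2(CPM + 0.5) minus the gene's mean over the 6 plants (x axis), with Epi 8 plants above WT plants in each row and vertical bars at group means. F6'H1 and BHLH39 separate the lines upward in Epi 8, FRO2 and IRT1 are highest in plant 1 of both lines, and AT4 and PAP17 separate the lines downward.

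Nitrogen and sulfur uptake genes stood near the background, with 1 of 21 members tested past the limit and a list median of -0.003. The exception was NRT2.1, a high-affinity nitrate transporter, with 46.9, 27.6 and 41.5 CPM in Epi 8 roots, against 31.1, 8.32 and 24.2 CPM in WT roots (log2FC 0.87, FDR = 0.875). Its groups overlapped, and it no longer passed without Epi 8 plant 1, Epi 8 plant 3 or WT plant 2. The count of the list was 3 without Epi 8 plant 3 and 2 without WT plant 3. The dual-affinity nitrate transporter NRT1.1 had 113, 126 and 205 CPM in Epi 8, against 278, 181 and 136 CPM in WT, and did not pass. Outside this list, SULTR2;1, a sulfate transporter of the root vasculature, had 52.1, 51.7 and 47.2 CPM in Epi 8, against 120, 68.1 and 121 CPM in WT. The Epi 8 plants lay within a narrow range below every WT plant (log2FC -1.03, SE 0.21, FDR = 0.412). HRS1, a GARP factor that links nitrate and phosphate signals, had 93.7, 89.2 and 100.2 CPM in Epi 8, against 73.6, 62.8 and 49.9 CPM in WT (log2FC 0.60, FDR = 0.549).

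Most genes for the endodermal barriers had a negative log2FC in Epi 8 roots, and fewer passed the limit. Of 24 members tested, 21 were negative, and 9 (37.5%, against 1.91% of all genes) passed the limit, each lower, with a list median of -0.40. In 9 of the 24, the Epi 8 plants all lay below the WT plants, against 6.51% of all genes. Past the limit were 6 of 10 Casparian strip genes, with a median of -0.51, and 3 of 14 suberin genes, with a median of -0.23. Without WT plant 1 the counts were 2 of 10 and 5 of 14, and without Epi 8 plant 2 they were 2 and 1. CASP5, a membrane scaffold protein of the strip (AT5G15290), had 3.58, 5.05 and 4.89 CPM in Epi 8, against 7.94, 7.76 and 14.7 CPM in WT, without overlap (log2FC -1.17, SE 0.31, FDR = 0.64). GSO1, the receptor kinase that monitors the integrity of the strip, had 23.5, 23.8 and 26.1 CPM in Epi 8, against 42.0, 28.9 and 47.2 CPM in WT (log2FC -0.69, FDR = 0.725). ESB1, a dirigent protein that positions the lignin, had 140, 136 and 160 CPM in Epi 8, against 293, 164 and 195 CPM in WT. The Epi 8 plants of both genes lay close together and below WT. The ESB1 log2FC of -0.58 was -0.30 without WT plant 1, the plant at 293 CPM, and ESB1 did not pass without that plant, Epi 8 plant 1 or Epi 8 plant 2.

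The scaffold gene CASP4 passed at a log2FC of -0.51, and CASP1 and CASP2, at -0.36 and -0.37, did not. PER64, the peroxidase that polymerises lignin at the strip, had 64.4, 71.8 and 83.4 CPM in Epi 8, against 119, 80.5 and 115 CPM in WT, with overlap. MYB36, the transcription factor that switches on the strip genes, had 15.3, 14.7 and 13.0 CPM in Epi 8, against 11.9, 16.1 and 12.8 CPM in WT, with overlap (log2FC 0.08, FDR = 0.992). Of the suberin genes, KCS2, which elongates very long fatty acids, had 39.1, 34.3 and 47.0 CPM in Epi 8, against 62.1, 69.9 and 58.3 CPM in WT (log2FC -0.66, FDR = 0.725). GPAT5, an acyltransferase of suberin monomers, had 13.6, 12.3 and 15.2 CPM in Epi 8, against 15.5, 16.8 and 30.1 CPM in WT, where plant 3 was high. The transporter ABCG6 passed at a log2FC of -0.52. Without Epi 8 plant 2, 3 of the 24 barrier genes passed the limit. The list median was -0.24 without WT plant 1 and -0.26 without WT plant 3, and that of the Casparian strip genes -0.25 without WT plant 1. CASP5, GSO1 and KCS2 stayed past the limit whichever plant was left out.

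Most aquaporins had a slightly negative log2FC, and a few passed the limit. Of 23 members tested, 19 had a negative log2FC, with a median of -0.34, and in 12 of them every Epi 8 plant lay below every WT plant, against 6.51% of all genes. Past the limit were 4 lower and 1 higher (21.7% in all, against 3.02% of all genes). TIP2;1, a tonoplast channel for water and ammonia (AT3G16240, chromosome 3, 5505360 to 5507050), had 125, 99.6 and 122 CPM in Epi 8, against 204, 169 and 197 CPM in WT, a clear gap (log2FC -0.72, SE 0.15, FDR = 0.412). TIP2;2 had 379, 218 and 337 CPM in Epi 8, against 559, 455 and 416 CPM in WT (log2FC -0.61, FDR = 0.799). TIP2;3 had 113, 79.98 and 77.7 CPM in Epi 8, against 120, 146 and 145 CPM in WT (log2FC -0.60, FDR = 0.766). PIP2;3, of the plasma membrane, had 97.1, 99.0 and 78.8 CPM in Epi 8, against 146, 122 and 153 CPM in WT (log2FC -0.61, FDR = 0.748). The abundant plasma membrane channels had smaller differences without overlap. PIP1;2 had 802, 808 and 789 CPM in Epi 8, against 1068, 1080 and 1144 CPM in WT (log2FC -0.46), and PIP2;1 had 1105, 1071 and 901 CPM in Epi 8, against 1347, 1278 and 1263 CPM in WT (log2FC -0.34). Summed over the family, aquaporins reached 7850, 7006 and 6753 CPM in Epi 8, against 9700, 8927 and 9053 CPM in WT.

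NIP2;1 went the other way. This channel, known in roots for its induction by low oxygen (AT2G34390), had 5.54, 9.89 and 7.98 CPM in Epi 8, against 2.27, 2.22 and 3.49 CPM in WT, without overlap (log2FC 1.55, SE 0.32, FDR = 0.412). TIP2;1, TIP2;3, PIP2;3 and NIP2;1 stayed past the limit whichever plant was left out. Close copies of aquaporins can share reads, and only uniquely mapped reads were counted.

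**Figure D5:**
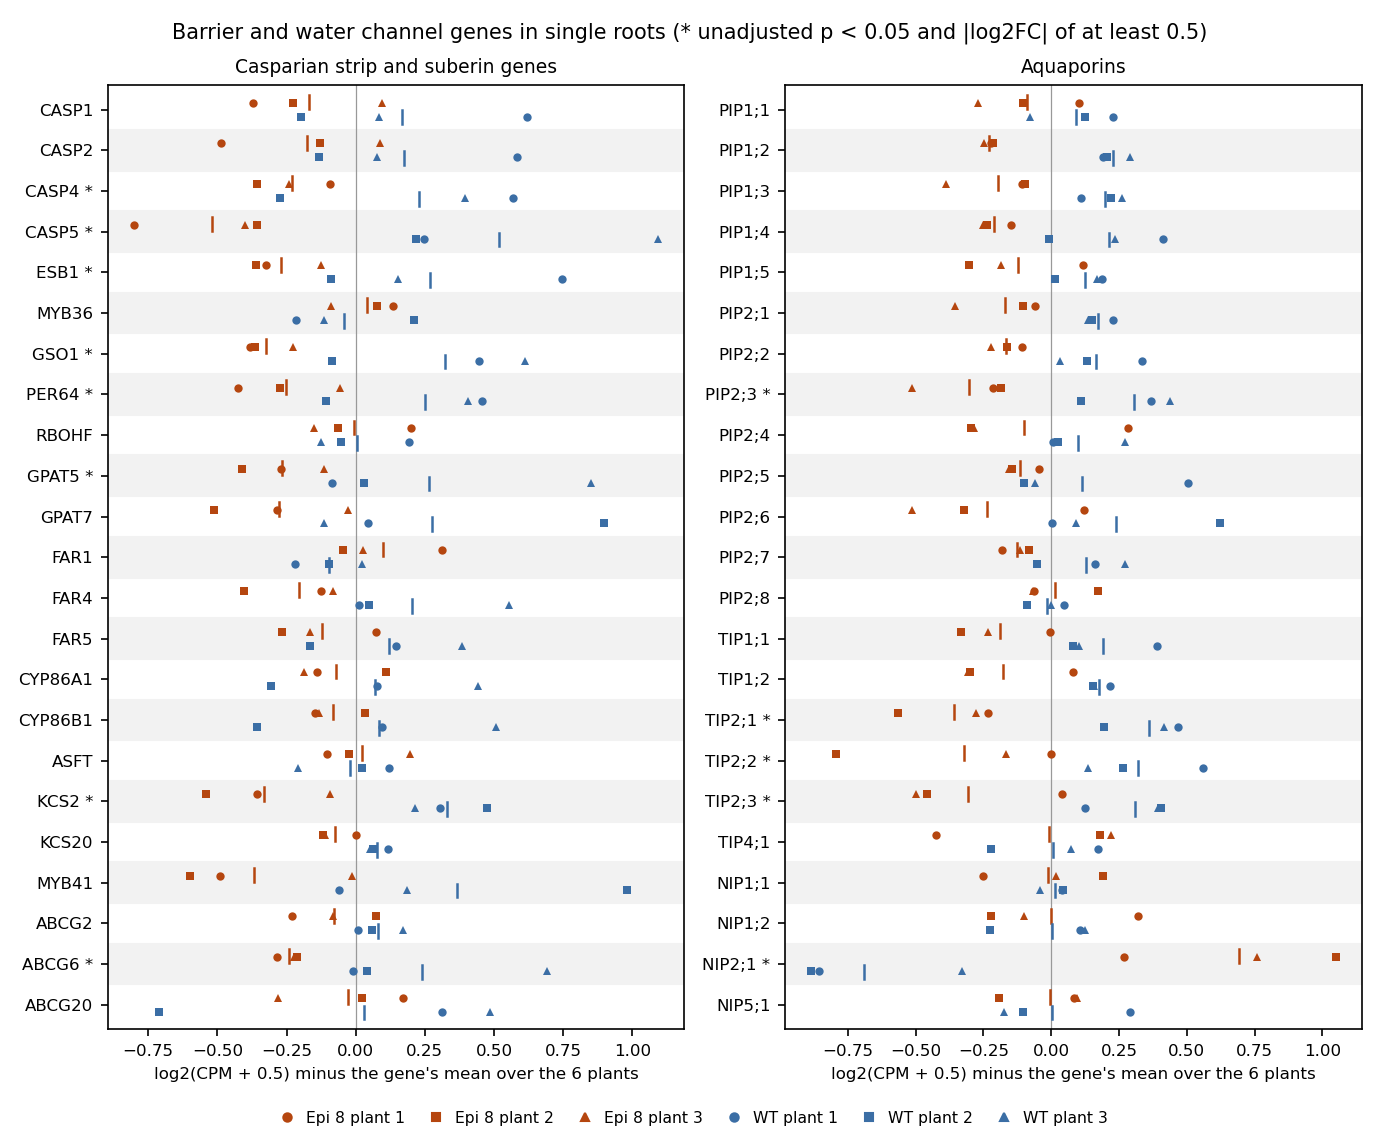
Endodermal barrier genes (23 of the 24 tested) and aquaporins in single roots, as log2(CPM + 0.5) minus the gene's mean over the 6 plants (x axis), with Epi 8 plants above WT plants in each row and vertical bars at group means. The log2FC is negative for 21 of 24 barrier genes and 19 of 23 aquaporins, and the Epi 8 plants of NIP2;1 lie far to the right of WT.

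Laccases, the copper oxidases that polymerise lignin, mostly had a negative log2FC, with LAC10 as an exception. Of 16 members tested, 13 had a negative log2FC, with a median of -0.40, and 4 passed the limit lower and 1 higher (31.25% in all, against 3.02% of all genes). LAC3, a laccase of the Casparian strip domain, had 105, 118 and 119 CPM in Epi 8 roots, against 203, 153 and 178 CPM in WT roots, without overlap (log2FC -0.64, FDR = 0.766). LAC13 had 10.3, 6.88 and 15.6 CPM in Epi 8, against 16.7, 15.6 and 21.3 CPM in WT. LAC5 and LAC12 passed at log2FC of -0.54 and -0.96. LAC10 (AT5G01190, chromosome 5, 72292 to 74769) had 7.76, 5.45 and 6.29 CPM in Epi 8, against 1.46, 0.655 and 0.806 CPM in WT. Its lowest Epi 8 plant was well above its highest WT plant (log2FC 2.74, SE 0.52, FDR = 0.412). It was also higher in Epi 8 leaf, with a log2FC of 2.46 at an FDR of 0.0392, and had a log2FC of 1.65 in floral stem. Of the laccases, 2 passed without Epi 8 plant 2 and 2 without WT plant 3. The genes that supply lignin monomers (17 tested) and those of the secondary wall (22 tested) had 0 members past the limit.

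Expansins loosen the wall of growing cells. Of 20 tested, 16 had a negative log2FC, and 4 passed lower and 1 higher (25% in all, against 3.02% of all genes). EXPA6 had 57.5, 34.3 and 44.9 CPM in Epi 8, against 86.1, 49.2 and 71.1 CPM in WT, with overlap (log2FC -0.59, FDR = 0.875). EXPA3 had 1.56, 2.34 and 2.096 CPM in Epi 8, against 3.19, 4.18 and 5.21 CPM in WT, without overlap. EXPA10 passed at -0.78. EXPA16 owed its value to 2.42 CPM in WT plant 2, with at most 0.0998 CPM in the other 5 plants, and its log2FC was 0.26 without that plant. EXPB2 was higher, with at most 2.60 CPM in any plant. The count was 3 without Epi 8 plant 1, 1 without Epi 8 plant 2, 2 without WT plant 1 and 1 without WT plant 3, and the list median was -0.15 without Epi 8 plant 1. Root hair genes had 0 of 20 past the limit, but 3 without Epi 8 plant 3 and 2 without WT plant 2.

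The smallest FDR of the comparison belonged to CWINV5, annotated as a cell wall invertase (AT3G13784, chromosome 3, 4528362 to 4530713). Enzymes of this class split sucrose outside the cell. It had 12.0, 5.61 and 9.78 CPM in Epi 8 roots, against 38.2, 21.8 and 46.9 CPM in WT roots, so that the highest Epi 8 plant was below the lowest WT plant (log2FC -1.96, SE 0.29, FDR = 0.127). It passed an FDR of 0.05 in edgeR's likelihood ratio and exact tests and in DESeq2. CWINV5 overlaps another annotated gene, and the strand setting of the counting is not given, so its counts are uncertain. SWEET11, a sucrose exporter of the phloem, had 8.82, 4.38 and 6.94 CPM in Epi 8, against 13.2, 17.0 and 10.7 CPM in WT (log2FC -1.02, FDR = 0.549). These were the 2 of 14 sucrose and hexose genes past the limit (against 3.02% of all genes), and 12 of the 14 had a negative log2FC. The phloem loader SUC2 had a log2FC of -0.18 and did not pass. TPPB, a phosphatase that removes the sugar signal trehalose-6-phosphate, had 57.1, 60.1 and 48.1 CPM in Epi 8, against 24.2, 29.6 and 38.4 CPM in WT (log2FC 0.84, FDR = 0.435). PDC2, a pyruvate decarboxylase of ethanol fermentation, had 75.8, 76.7 and 56.0 CPM in Epi 8, against 45.8, 42.4 and 34.8 CPM in WT (log2FC 0.76, FDR = 0.412). Both genes were without overlap and stayed past the limit whichever plant was left out.

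Other genes named for their small unadjusted p belonged to none of the lists. CYP94B1, which oxidises the active jasmonate conjugate, had 6.45, 4.13 and 5.24 CPM in Epi 8, against 9.88, 12.4 and 14.8 CPM in WT (log2FC -1.23, SE 0.23, FDR = 0.412). The cytochrome P450 gene CYP82F1 had 28.5, 21.3 and 24.7 CPM in Epi 8, against 46.8, 43.8 and 39.8 CPM in WT (log2FC -0.81, FDR = 0.412). CYP71B13, of the same superfamily, had 7.05, 4.64 and 6.04 CPM in Epi 8, against 16.3, 12.9 and 11.2 CPM in WT (log2FC -1.19, FDR = 0.412). The 3 P450 genes were lower in every Epi 8 plant than in any WT plant. BGLU7, a beta glucosidase, had 52.3, 46.7 and 43.3 CPM in Epi 8, against 74.7, 74.9 and 115 CPM in WT (log2FC -0.90, FDR = 0.412). The MATE efflux gene AT1G61890 had 32.0, 37.4 and 47.5 CPM in Epi 8, against 69.8, 116 and 63.5 CPM in WT (log2FC -1.09, FDR = 0.412). The hydrolase gene AT1G23330 had a log2FC of -0.68. AT1G56660, annotated as a MAEBL domain protein, had 95.3, 87.0 and 75.8 CPM in Epi 8, against 323, 599 and 158 CPM in WT. The WT plants were far apart from each other and all above the Epi 8 plants, which stayed together (log2FC -2.06, FDR = 0.429). Among the higher genes, AT5G60760, a P-loop hydrolase, had 22.2, 33.3 and 17.61 CPM in Epi 8, against 11.4, 10.2 and 11.8 CPM in WT (log2FC 1.13, FDR = 0.412). AT2G45360, AT5G20640 and AT1G27020 were the others, with log2FC of 1.298, 1.099 and 0.60.

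Abscisic acid and cold genes were compared with a WT group in which 1 plant was high. Of 15 members tested, 14 had a negative log2FC, with a median of -0.61, and 3 (20%, against 1.91% of all genes) passed the limit, each lower. RD29A, a classic target of both signals, had 25.6, 22.4 and 33.6 CPM in Epi 8 roots, against 60.1, 345 and 38.1 CPM in WT roots (log2FC -2.44, FDR = 0.598). HAI1, a phosphatase of the same pathway, had 1.71, 0.816 and 5.84 CPM in Epi 8, against 4.05, 24.9 and 8.22 CPM in WT. WT plant 2 stood far above the other WT plants for both. The list summed to 968, 814 and 864 CPM in Epi 8, against 996, 2080 and 903 CPM in WT. HAB1, a co-receptor phosphatase, had 29.6, 27.1 and 35.7 CPM in Epi 8, against 42.8, 56.2 and 37.7 CPM in WT (log2FC -0.56, FDR = 0.748). Without WT plant 2, 1 of the 15 passed and the median was -0.30, and without WT plant 1 it was -0.98. The count was 6 without Epi 8 plant 1, 5 without Epi 8 plant 3, 9 without WT plant 1 and 8 without WT plant 3. RD29A stayed past the limit whichever plant was left out.

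Other hormone and stress lists held few genes past the limit, which 3.02% of all genes passed. VSP2, a storage protein induced by jasmonate, had 78.2, 47.4 and 44.5 CPM in Epi 8, against 121, 102 and 131 CPM in WT, without overlap (log2FC -1.06, FDR = 0.549). It was the 1 of 15 jasmonate genes past the limit. The auxin exporters PIN4 and PIN7 were the 2 of 28 auxin genes past it. PIN7 had 50.2, 47.5 and 55.6 CPM in Epi 8, against 94.2, 66.5 and 64.2 CPM in WT (log2FC -0.55, FDR = 0.725). PIN4 had 19.0, 28.5 and 28.4 CPM in Epi 8, against 37.8, 35.7 and 34.2 CPM in WT (log2FC -0.50, FDR = 0.855). Neither PIN gene passed without WT plant 1. None of the 12 salicylic acid genes, 9 type-A response regulators of cytokinin or 6 flavonoid genes passed, but without WT plant 2 the flavonoid count was 4 of 6 and its median -0.62, against -0.33 with all plants. Of 12 heat shock genes, 3 (25%, against 1.12% of all genes) passed higher. HSP17.4, a small chaperone of the cytosol, had 23.5, 15.8 and 14.4 CPM in Epi 8, against 12.2, 8.52 and 8.06 CPM in WT (log2FC 0.90, FDR = 0.842). HSP17.6A and AT1G53540 were the others, at 1.67 and 0.88. The heat shock count was 1 without Epi 8 plant 1, 1 without WT plant 2 and 0 without WT plant 3, and the list median of 0.37 was -0.03 and 0.08 without the first 2 of these plants. The glucosinolate gene CYP79F1, the 1 of 11 past the limit, had at most 1.73 CPM in any plant, and the glucosinolate count was 3 without WT plant 2 and 0 without Epi 8 plant 2 or WT plant 3.

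Lists tied to growth and to the origin of the line gave few differences. The mitotic genes had 0 of 10 past the limit, with 9 of 10 positive and a median of 0.22, which was 0.13 without Epi 8 plant 3. CYCB1;1, a cyclin of dividing cells, had 15.1, 18.6 and 15.02 CPM in Epi 8 roots, against 10.4, 14.7 and 10.8 CPM in WT roots, at a log2FC of 0.44 under the fold limit (FDR = 0.88). Summed mitotic genes reached 282, 295 and 291 CPM in Epi 8, against 240, 268 and 265 CPM in WT. Of 23 genes of DNA methylation and its machinery, 1 passed (against 3.02% of all genes). This was AGO6, an Argonaute of RNA-directed DNA methylation, with 4.28, 2.65 and 3.39 CPM in Epi 8, against 1.404, 1.66 and 2.15 CPM in WT (log2FC 0.98, FDR = 0.88). It dropped out without Epi 8 plant 1, Epi 8 plant 3, WT plant 1 or WT plant 2. Genes of organelle stress had 0 of 11 past the limit, with a median of -0.09. Of the 16 root cell type markers, AT1G62500 passed, with 2.27, 5.25 and 2.89 CPM in Epi 8, against 7.29, 6.00 and 7.46 CPM in WT, and the median of the markers was -0.005.

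For the same genes, Epi 8 was also set against Epi 24, whose roots were of the same age. The printed FDR are those of this comparison. Of the 78 named genes, 45 had an unadjusted p under 0.05 between Epi 8 and Epi 24, against 11.4% of all genes. The same 3 Epi 8 plants entered both comparisons, so this count is not independent of the choice of the genes. CWINV5 had 12.0, 5.61 and 9.78 CPM in Epi 8, against 21.9, 27.2 and 20.3 CPM in Epi 24 (log2FC -1.34, FDR = 0.21). CYP94B1 had 6.45, 4.13 and 5.24 CPM in Epi 8, against 12.0, 13.0 and 11.5 CPM in Epi 24 (log2FC -1.20, FDR = 0.162). CASP5 had 3.58, 5.05 and 4.89 CPM in Epi 8, against 9.57, 15.2 and 8.69 CPM in Epi 24 (log2FC -1.31, FDR = 0.249). These genes were low in Epi 8 next to both other lines. LAC10 had 7.76, 5.45 and 6.29 CPM in Epi 8, against 2.204, 10.9 and 7.79 CPM in Epi 24, and did not separate these lines (log2FC -0.10, FDR = 0.954). CCA1, at 5.79, 6.12 and 8.18 CPM in Epi 8 and 8.62, 9.50 and 6.29 CPM in Epi 24, overlapped as well (log2FC -0.28, FDR = 0.687). An FDR under 0.05 was reached by 0.0192% of all genes and by 1 of the 78, HSP17.4. It had 23.5, 15.8 and 14.4 CPM in Epi 8, against 5.01, 1.60 and 4.05 CPM in Epi 24 (log2FC 2.33, FDR = 0.0417). Against WT, its log2FC was 0.90 in Epi 8 and -1.42 in Epi 24, so the larger part of this separation lay in Epi 24.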

How the data were processed

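Total RNA of roots was sequenced as TruSeq RNA v2 libraries with paired 150 bp reads, which do not mark strand. After trimming (TrimGalore), the authors mapped reads uniquely on TAIR10 using STAR 2.7.3a, applied a mapping quality limit in QoRTs and deposited a raw count for each gene, and they called genes in edgeR 3.26.8. The strand setting of the counting is not given in the sources used here, so 20 of the 78 named genes, which overlap another gene, are uncertain. Among the top genes these are CWINV5, LNK2, PAP17, TIP2;1, NIP2;1, F6'H1, AT2G45360 and AT5G20640. The others are LNK1, LNK3, LUX, FKF1, BHLH38, BHLH101, CASP5, ESB1, GSO1, PER64, KCS2 and HSP17.4. Reads outside genes were 4.41 to 5.02% and ambiguous reads 0.802 to 0.908% of the total, and both were left out.

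The counts of the 9 root libraries were scaled by TMM and fitted in edgeR 4.0.16 (R 4.3.3) by the quasi-likelihood test after filterByExpr, with Benjamini-Hochberg adjustment over all 20787 genes. The Epi 24 libraries were kept for the spread, because the study names edgeR and its limits but not the test or the libraries in each fit. Comparisons between organs used all 27 libraries in 9 groups. SE were derived from the log2FC and its F statistic, and CPM are counts scaled by TMM. Simulated counts were used to test the fit. It recovered 88.9% of 4-fold and 63% of 2-fold changes, with 155 calls, 4 of them false, over 20675 genes. The simulated spread between plants followed the trend over genes of similar level. Genes or plants that spread more than this trend were not simulated, so these shares may be too high for the real roots. Alternatives were edgeR's likelihood ratio and exact tests, DESeq2 1.42.0, RLE scaling, no filter, a filter of 1 CPM, only the 6 libraries, no fold limit, blocking on plant number, and fits that omit 1 plant. Lists refitted on the 6 libraries alone were added after seeing the data. No plants of a group agreed within sampling noise (chi-square over degrees of freedom at least 13.96).

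Named genes were, among genes past the unadjusted limit with a mean of at least 1 CPM and no overlap between lines, the 12 with the smallest p in each direction, and every list member past the limit. One of them is counted but not reported by name here. The samples, lists and tests were chosen with earlier results of these data known. Gene names, positions and promoters came from the RefSeq annotation of TAIR10.1, which matched 32548 of 33977 genes. Promoters were the 300 bases before the annotated start, searched on both strands. Tables and figures used Python 3.11.15, numpy 2.4.6, pandas 2.3.3 and matplotlib 3.10.9, with a pseudocount of 0.5 CPM in figures of single plants.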

Additional observations from a re-analysis of the deposited data

Results flagged for a closer look

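For 13 genes that are named above or belong to one of the lists, the Epi 8 effect in root differed from the Epi 8 effect in floral stem at an FDR under 0.05 in edgeR's quasi-likelihood test of the difference itself. Each value below is the log2FC in root minus the log2FC in floral stem. Among morning genes, it was -2.05 for LHY (FDR = 0.00183), -1.96 for CCA1 (FDR = 0.0329) and -1.31 for LNK1 (FDR = 0.0259). Among evening genes, it was 3.72 for PRR3 (FDR = 2.44e-05), 1.99 for TOC1 (FDR = 0.000375), 1.52 for LUX (FDR = 0.0349) and 1.05 for ELF3 (FDR = 0.0372). Among clock outputs, it was 4.24 for COR27, a cold and clock gene (FDR = 0.00131), 3.88 for AT4G33980 (FDR = 5.78e-05) and 2.22 for GRP7 (FDR = 0.000521). The cold gene KIN2 had 1.99 (FDR = 0.00553), the fermentation gene PDC2 had 1.83 (FDR = 0.0291), and the cytokinin response regulator ARR6 had -2.29 (FDR = 0.0276). In root itself, the log2FC was 0.37 for COR27, -0.496 for KIN2 and 0.23 for ARR6, each under the fold limit. For KIN2 and ARR6, the root value thus had the opposite sign to the difference. The roots were 10 days old and grew on medium, and the floral stems came from older plants on peat, so organ, age and medium cannot be told apart. The hour of harvest is not given in the sources used here, and its part in these differences was not tested.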

How the results depend on the processing

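The count of DEGs in root, 0 in edgeR's quasi-likelihood test, was 29 in the likelihood ratio test, 81 in the exact test on the 6 libraries, 30 in DESeq2 and 8 with no filter on low counts, and 0 to 1 when each plant was left out in turn (1 without WT plant 2). The 628 genes past the unadjusted limit were 1165 with no fold limit and 452 to 889 when each plant was left out (452 without Epi 8 plant 2 and 889 without WT plant 2). The difference between root and leaf gave 0 genes, 50 in the likelihood ratio test and 0 to 1 with plants left out (1 without Epi 8 root plant 1 and 1 without Epi 8 root plant 2). The difference between root and floral stem gave 71 genes, 395 in the likelihood ratio test and 32 to 80 with plants left out. Of the named genes, 45 separated Epi 8 from Epi 24 at an unadjusted p, and 35 to 46 did with plants left out.

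Same-numbered Epi 8 and WT plants share only a number (correlations of their deviations 0.018, 0.05 and -0.022). With the plant number as a replicate block there were 0 DEGs, 567 genes past the unadjusted limit, 45 named genes that separated Epi 8 from Epi 24, 0 genes between root and leaf and 56 between root and floral stem. Under the block, 11 of the 78 named genes no longer passed, 2 of 20 expansins did, and the glucosinolate and photosynthesis lists, with 1 each without it, had 0 members past the limit.

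Named genes no longer passed in 2 of 75 cases with the filter on CPM, 1 of 78 each with DESeq2, RLE scaling and no filter, and 0 of 76 in the exact test. Without 1 plant, 15 to 27 of 78 no longer passed, the most without Epi 8 plant 1. EXPA16 was the named gene that turned its direction. The EXPA16 log2FC was -7.0002 without Epi 8 plant 3 and 0.26 without WT plant 2. Genes near the floor of 3 counts rest on few reads.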
